A study of Mus musculus with 6 samples.

Results

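The expression of 10 genes was compared between satellite cells of NF-YA cKO mice and those of NF-YA fl/fl controls. These genes encode the retinoblastoma family (Rb1, Rbl1 and Rbl2), the MuvB core (Lin9, Lin37, Lin52, Lin54 and Rbbp4) and the activators B-Myb (Mybl2) and FoxM1 (Foxm1). They were chosen by name for their shared role, and all 10 were found by gene symbol among the 35976 genes of the deposited tables. The data are 6 RNA-seq libraries of mouse muscle satellite cells (SCs, the stem cells of adult muscle), 3 of NF-YA cKO and 3 of NF-YA fl/fl genotype. Both genotypes carried LoxP sites in the gene for NF-YA, the DNA-binding regulatory subunit of the CCAAT-binding factor NF-Y, and mice of both received tamoxifen (20 mg/ml) at a labelled age of 5 to 7 weeks. NF-YA cKO mice also carried a tamoxifen-activated Cre recombinase driven by Pax7, so that the deletion was made only in cells that expressed Pax7, while NF-YA fl/fl mice had no Cre. SCs were enriched by magnetic removal of cells positive for CD31, CD45, CD11b or Sca1, plated on Matrigel and kept in growth medium with FGF-2, and stranded libraries were made from 500 ng of total RNA. The labels number 3 replicates per genotype and do not say that they came from separate mice, so that p-values measure the spread between these libraries, which may be technical.

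The 3 pocket proteins bind E2F transcription factors and hold cell cycle genes silent until cyclin-dependent kinases phosphorylate them. In resting cells p130 (Rbl2) or p107 (Rbl1) joins E2F4 or E2F5, a DP protein and the MuvB core in the DREAM complex, which keeps cell cycle genes off. In S phase the same core leaves the pocket protein and takes up B-Myb, and later FoxM1, and then activates the genes of G2 and mitosis through a promoter element called CHR. In muscle, Rb1 is known for keeping differentiated cells out of the cell cycle. Many promoters of the same late genes also hold CCAAT boxes, the sequence that NF-Y binds.

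Libraries held 31040863 to 41118984 expected counts in NF-YA cKO and 26936230 to 33316730 in NF-YA fl/fl. Of the targeted gene Nfya, the entry for the deleted allele (2883 nt) took 33.2% ± 6.74 (SD, n = 3) of the Nfya TPM in NF-YA cKO and was at 0 in all NF-YA fl/fl libraries, while the whole gene had 27.5 ± 0.874 CPM in the former and 28.7 ± 7.20 CPM in the latter (FDR = 0.814, edgeR's quasi-likelihood test). Markers of differentiated muscle fell in 20 of 20 genes, from a summed 50772 to 62904 CPM in NF-YA fl/fl to 718 to 1586 CPM in NF-YA cKO. Of 11 tested macrophage markers, 10 rose, from a summed 5.90 to 16.1 CPM to 146 to 289 CPM, and in 1 NF-YA fl/fl library Ptprc and C1qb were at 0. Of 11 tested satellite cell markers, 3 rose and 5 fell (median log2 fold change -0.79), and their sum went from 2791 to 4636 CPM in NF-YA fl/fl to 1921 to 2152 CPM in NF-YA cKO. Pax7 rose from 88.7 ± 15.8 to 171 ± 28.4 CPM, while Des fell from 1392 ± 158 to 327 ± 41.2 CPM. Among 10 fibro-adipogenic markers 3 rose, and among 8 endothelial markers 2 rose and 1 fell. Of all tested genes, 19.7% rose and 18.9% fell. In bulk RNA, fewer cells of a type and less RNA per cell cannot be told apart, and the part of these marker changes in the results was not tested. All NF-YA cKO libraries had Xist (836 to 852 CPM) and nearly no Ddx3y (0.047 to 0.0957 CPM), all NF-YA fl/fl libraries the reverse (0.306 to 0.475 and 80.9 to 88.6 CPM), so that effects of sex and of genotype cannot be told apart here. The study's methods name male mice, which the Xist of the NF-YA cKO libraries goes against. All of the 10 genes are autosomal, which does not separate sex from genotype for them. NF-YA fl/fl replicate 3 stood farthest from the other libraries of its genotype.

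NF-YA cKO cells had less Rb1 and Lin37 mRNA and more Mybl2, Rbl1, Lin9 and Lin54 mRNA than NF-YA fl/fl cells. Levels are given as CPM, the counts of a gene relative to the TMM-scaled library size, and differences as log2 fold changes of NF-YA cKO over NF-YA fl/fl from edgeR's quasi-likelihood test over 17348 genes, with Benjamini-Hochberg adjusted p (FDR). A gene was said to rise or fall where the FDR was under 0.05. A call needed an FDR under 0.01 together with a log2 fold change beyond 1 or -1. Of the 10 genes, all of which were tested, 1 was called higher (Mybl2) and 1 lower (Rb1), where 4.65% of all tested genes were called higher and 7.67% lower, 12.3% in all. At an FDR under 0.05, 4 rose and 2 fell, against 19.7% and 18.9% of all genes (38.6% together). The CPM of the genotypes did not overlap for 5 genes with NF-YA cKO above and 3 with NF-YA cKO below, where 29.1% and 26.2% of all genes did so, 55.3% in either direction. Over the 10 genes the log2 fold change had a median of 0.32, and over all tested genes of -0.02.

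**Figure D1:**
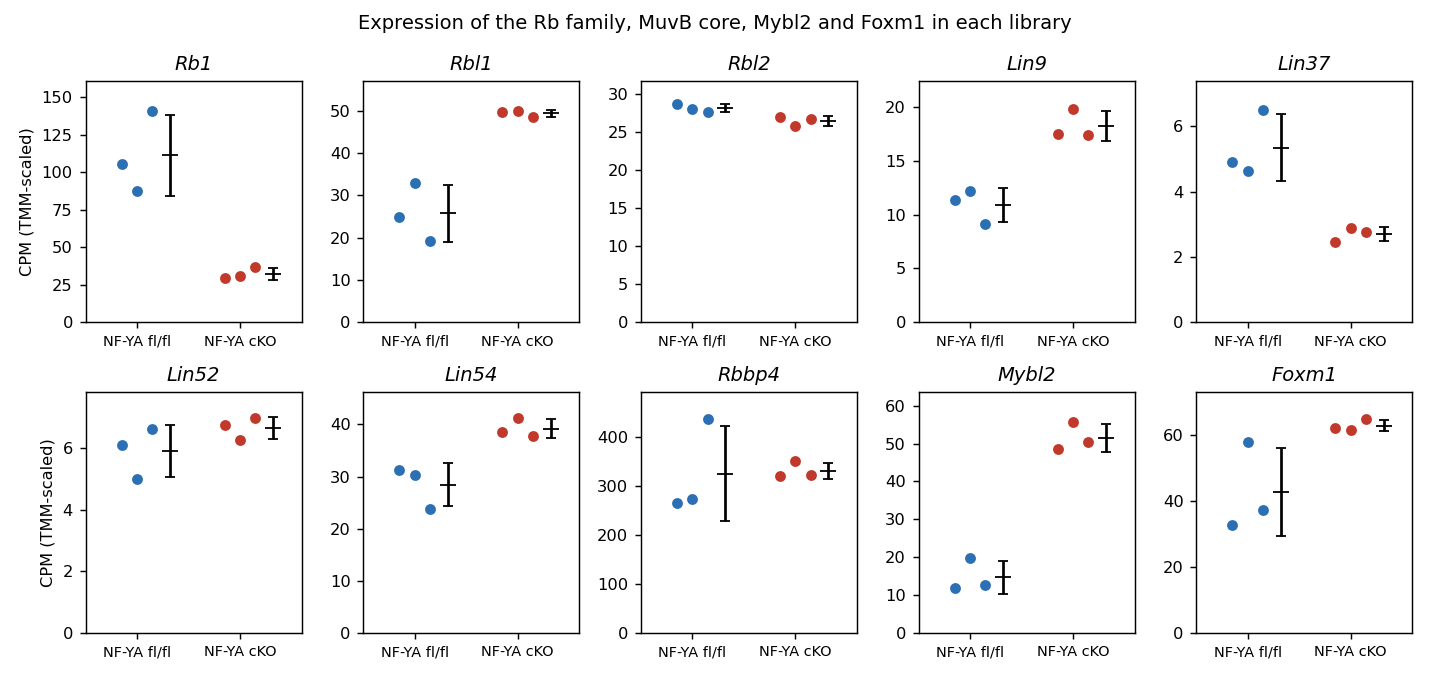
CPM (vertical axes, from 0) of the 10 genes in each library, NF-YA fl/fl in blue and NF-YA cKO in red, with the mean and SD of 3 libraries as a black bar. Rb1 and Lin37 lay lower in all 3 NF-YA cKO libraries, and Mybl2, Rbl1, Lin9 and Lin54 lay higher.

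The pocket proteins moved apart: Rb1 fell, Rbl1 rose and Rbl2 did not pass the test. Rb1 encodes pRb, the founding tumour suppressor of the family, and lies on the minus strand of chromosome 14 (chr14:73192858-73325951, GRCm38). It was at 29.2, 30.5 and 36.7 CPM in NF-YA cKO replicates 1 to 3 and 106, 87.5 and 141 CPM in NF-YA fl/fl replicates 1 to 3. The highest NF-YA cKO library lay well below the lowest NF-YA fl/fl library. The means of 32.1 ± 4.02 and 111 ± 27.0 CPM differed 3.46-fold (log2 fold change -1.79, standard error 0.19, 95% interval -2.25 to -1.33, FDR = 0.00101). Exons of Lpar6 and Rcbtb2 lie on the opposite strand of Rb1 exons, over at most 209 and 383 nt, and whether the counting used strand is not given in the sources used here. The mean TPM, a level per transcript length, was 7.33 in NF-YA fl/fl and 5.48 in NF-YA cKO for Lpar6, and 17.2 and 19.03 for Rcbtb2.

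Rbl1 encodes p107, the pocket protein that rises in cycling cells, and lies at chr2:157145893-157204534 on the minus strand. It was at 49.7, 50.05 and 48.4 CPM in NF-YA cKO and 25.0, 32.9 and 19.3 CPM in NF-YA fl/fl. All NF-YA cKO libraries were above all NF-YA fl/fl libraries, and the spread was wider in NF-YA fl/fl, where replicate 2 was highest. The rise was 1.92-fold (log2 fold change 0.94, standard error 0.19, interval 0.50 to 1.39, FDR = 0.00862), short of the call on size, and reached 1.15 with FDR = 0.0022 without NF-YA fl/fl replicate 2, which made it a called gene.

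Rbl2 encodes p130, the pocket protein of resting cells, and lies at chr8:91070057-91123844 on the plus strand. It was at 26.9, 25.7 and 26.8 CPM in NF-YA cKO and 28.7, 28.1 and 27.7 CPM in NF-YA fl/fl. The CPM values did not overlap, yet the gap was small beside the differences of the other family members (log2 fold change -0.09, interval -0.30 to 0.12, FDR = 0.467), and the deposited TPM overlapped. Reads that Rbl2 shares with Aktip on the opposite strand, over at most 347 nt of exon, could not be told apart without strand.

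Promoters of Rbl1 and Rbl2 are shown because, of these close relatives, Rbl1 rose and Rbl2 did not pass the test. Whether the words found bear on this was not tested. RefSeq sequences (GRCm38.p6) ran from 250 bases before to 49 after the start site, counted as 0, and were given for 7 of the 10 genes in 8 windows. Rb1, Lin9 and Foxm1 were the others. The windows were searched on both strands for the CCAAT box, spelled CCAAT, and the CHR, spelled TTTGAA or, in its other form, TTCGAA. E2F words were spelled TTCCCGC or by the related word TTGGCGC, and also searched as the spelling TTCGCGC and in the form TTGCCGC. An E2F variant, TTGGCGG, was added after the Mybl2 window had been seen. Words may overlap, TTCGAA reads the same on both strands, and a word on the opposite strand appears as its reverse complement (ATTGG for CCAAT). Capitals mark the words found. The Rbl1 window (chr2:157204485-157204784, minus strand) held an E2F word at -17 and neither CCAAT nor CHR, and the Rbl2 window (chr8:91069807-91070106, plus strand) held a CHR at -201 on the opposite strand.
Rbl1: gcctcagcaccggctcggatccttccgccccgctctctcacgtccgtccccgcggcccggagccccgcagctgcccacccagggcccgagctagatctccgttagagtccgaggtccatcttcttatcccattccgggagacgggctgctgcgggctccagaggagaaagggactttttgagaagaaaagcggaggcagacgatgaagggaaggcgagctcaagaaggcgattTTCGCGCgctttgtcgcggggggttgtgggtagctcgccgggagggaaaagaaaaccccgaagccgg
Rbl2: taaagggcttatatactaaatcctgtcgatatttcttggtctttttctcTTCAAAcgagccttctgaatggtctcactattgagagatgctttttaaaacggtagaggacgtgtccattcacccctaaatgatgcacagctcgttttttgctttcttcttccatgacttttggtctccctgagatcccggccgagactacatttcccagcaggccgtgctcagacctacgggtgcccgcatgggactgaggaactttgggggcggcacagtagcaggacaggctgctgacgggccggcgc

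The make-up of the pocket protein mRNA differed between the genotypes. On the TPM scale, which is scaled to length and allows levels of different genes to be compared, Rb1 was at 26.95, 27.35 and 30.02 in NF-YA fl/fl and at 7.57, 6.67 and 9.11 in NF-YA cKO. Rbl1 was at 6.42, 11.58 and 4.52 TPM in NF-YA fl/fl and at 14.08, 12.24 and 14.12 TPM in NF-YA cKO. Rbl2 was at 6.73, 8.06 and 5.42 TPM, and at 6.42, 5.22 and 6.17 TPM. Rb1 was thus the most abundant of these mRNAs in all 3 NF-YA fl/fl libraries, and Rbl1 in all 3 NF-YA cKO libraries. The 3 genes summed to 42.4 ± 4.02 TPM in NF-YA fl/fl and 27.2 ± 2.74 TPM in NF-YA cKO. Of this sum, Rb1 made up 66.8% ± 8.47 in NF-YA fl/fl and 28.5% ± 2.15 in NF-YA cKO, while Rbl1 made up 17.3% ± 6.76 and 49.6% ± 1.42. These shares were computed after the values of the genes had been seen and are a description.

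**Figure D2:**
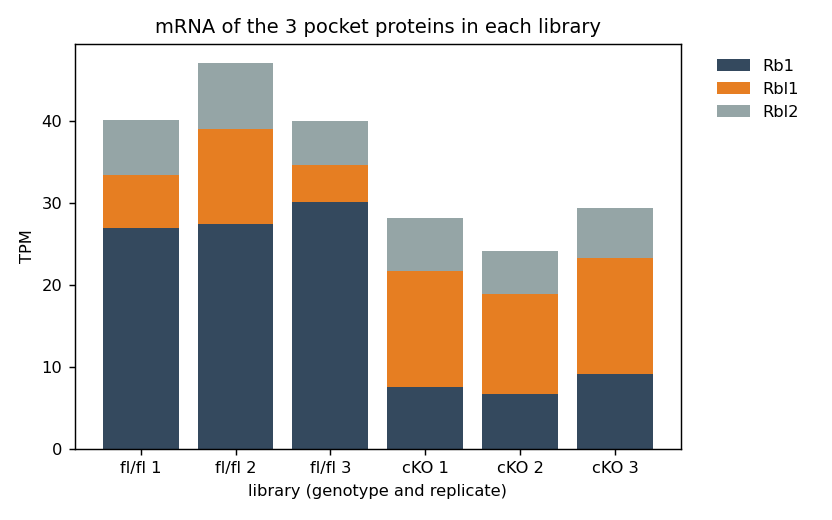
Stacked bars give the deposited TPM (vertical axis) of Rb1, Rbl1 and Rbl2 in each of the 6 libraries. The sum was 40.0 to 47.0 TPM in NF-YA fl/fl and 24.1 to 29.4 TPM in NF-YA cKO, with Rb1 the largest piece in the former and Rbl1 in the latter.

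The ratio of Rbl1 to Rbl2 TPM, the cycling against the resting pocket protein, was 2.19, 2.34 and 2.29 in NF-YA cKO and 0.954, 1.44 and 0.834 in NF-YA fl/fl. All NF-YA cKO libraries were above all NF-YA fl/fl libraries, with means of 2.28 ± 0.0767 and 1.07 ± 0.319 (difference of log2 ratios 1.12, p = 0.1 in a two-sided exact permutation test, which cannot give less with 3 libraries a side). The ratio of Mybl2 to Rbl2, which compete for the MuvB core, was 2.41, 2.91 and 2.52 in NF-YA cKO and 0.553, 0.942 and 0.605 in NF-YA fl/fl. It exceeded 1 in every NF-YA cKO library and in no NF-YA fl/fl library (means 2.61 ± 0.259 and 0.6999 ± 0.211, log2 difference 1.94, exact permutation test, two-sided, p = 0.1).

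The MuvB core did not move as one: Lin9 and Lin54 rose, Lin37 fell, and Lin52 and Rbbp4 did not pass the test. Lin9 (chr1:180641150-180690687, plus strand) encodes a scaffold of the core that also contacts B-Myb. It was at 17.5, 19.8 and 17.4 CPM in NF-YA cKO and 11.4, 12.2 and 9.13 CPM in NF-YA fl/fl. The genotypes did not overlap, and the rise was 1.67-fold (log2 fold change 0.74, standard error 0.15, interval 0.39 to 1.098, FDR = 0.00887). Without NF-YA cKO replicate 2 the log2 fold change was 0.64 and the FDR 0.0619.

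Lin54 (chr5:100442033-100500639, minus strand) encodes the subunit that binds the CHR in DNA. It was at 38.6, 41.2 and 37.8 CPM in NF-YA cKO and 31.3, 30.2 and 23.7 CPM in NF-YA fl/fl. The libraries were apart on the CPM scale and overlapped in TPM, and the rise was the smallest of those that passed, 1.38-fold (log2 fold change 0.46, standard error 0.13, interval 0.16 to 0.77, FDR = 0.0292). Without NF-YA cKO replicate 1, 2 or 3 the log2 fold change was 0.45, 0.39 and 0.46, and the FDR with fewer libraries was 0.109, 0.149 and 0.0985.

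Lin37 (chr7:30555441-30559721, minus strand) encodes a subunit needed for repression by DREAM. It was at 2.46, 2.90 and 2.75 CPM in NF-YA cKO and 4.89, 4.64 and 6.51 CPM in NF-YA fl/fl, where replicate 3 was highest. These levels rest on 77 to 192 counts per library, which include the lowest count of the 10 genes. The fall was 1.98-fold (log2 fold change -0.98, standard error 0.20, interval -1.47 to -0.50, FDR = 0.009999), just short of a call, which it met with DESeq2. The TPM of the genotypes did not overlap either (3.31, 3.32 and 3.55 against 6.38, 7.46 and 7.09).

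Lin37 is shown as the core gene that fell and whose window held CCAAT boxes within the 100 bases before the start site used. Its window (chr7:30559597-30559896, minus strand) had CCAAT at -97 and, on the opposite strand, at -78. It also had a CHR at -197 and the E2F variant at 16 on the opposite strand. The gene as placed above begins at 30559721 on the minus strand, inside the window and upstream of the start site used. Distances counted from that outer end would differ.
Lin37: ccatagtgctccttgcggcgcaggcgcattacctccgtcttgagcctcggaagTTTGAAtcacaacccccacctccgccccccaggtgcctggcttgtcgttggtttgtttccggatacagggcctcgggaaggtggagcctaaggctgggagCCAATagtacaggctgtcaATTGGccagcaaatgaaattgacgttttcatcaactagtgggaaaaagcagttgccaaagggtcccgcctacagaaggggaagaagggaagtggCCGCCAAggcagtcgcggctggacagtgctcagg

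Lin52 (chr12:84451508-84531533, plus strand) encodes the small subunit whose phosphorylation by DYRK1A holds the pocket protein on the core. It was at 6.76, 6.27 and 6.98 CPM in NF-YA cKO and 6.12, 5.00 and 6.65 CPM in NF-YA fl/fl. The genotypes overlapped (log2 fold change 0.17, interval -0.23 to 0.58, FDR = 0.452). Rbbp4 (chr4:129307100-129335370, minus strand) encodes a histone-binding protein that also serves in other chromatin complexes. It was at 320, 350 and 323 CPM in NF-YA cKO and 266, 273 and 437 CPM in NF-YA fl/fl. NF-YA fl/fl replicate 3 was the highest of all libraries and replicates 1 and 2 the lowest, so that the interval was wide (log2 fold change 0.03, interval -0.45 to 0.50, FDR = 0.931). Without NF-YA fl/fl replicate 3 Rbbp4 passed the test with a log2 fold change of 0.29 (FDR = 0.0182). Sync overlaps Rbbp4 exons on the opposite strand over at most 518 nt, and its mean TPM was 29.6 in NF-YA fl/fl and 11.8 in NF-YA cKO.

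Of the activators, Mybl2 rose and was called, and Foxm1 did not pass the test. Mybl2 (chr2:163054327-163084688, plus strand) encodes B-Myb, which turns the MuvB core into an activator. It was at 48.5, 55.6 and 50.3 CPM in NF-YA cKO and 11.8, 19.7 and 12.6 CPM in NF-YA fl/fl. Even the highest NF-YA fl/fl library, replicate 2, lay far below every NF-YA cKO library. The means of 51.5 ± 3.72 and 14.7 ± 4.36 CPM differed 3.50-fold (log2 fold change 1.81, standard error 0.21, interval 1.31 to 2.30, FDR = 0.00128), the largest rise among the 10 genes. Without NF-YA cKO replicate 2 the log2 fold change was 1.71 and the FDR of 0.0107 missed the call.

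The Mybl2 window (chr2:163054385-163054684, plus strand) is shown because this gene rose most. It held no CCAAT, CHR or E2F word of the list, and the E2F variant at -15. The gene as placed above begins at 163054327, before the first base of the window, so the window lies inside the gene. Sequence before that outer start was not searched, and whether it holds these words is not known here.
Mybl2: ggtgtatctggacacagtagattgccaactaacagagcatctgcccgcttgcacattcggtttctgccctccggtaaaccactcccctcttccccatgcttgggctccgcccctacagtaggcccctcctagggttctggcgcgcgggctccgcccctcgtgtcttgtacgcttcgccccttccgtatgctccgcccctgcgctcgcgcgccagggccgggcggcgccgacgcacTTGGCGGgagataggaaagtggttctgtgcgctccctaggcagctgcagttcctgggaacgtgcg

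Foxm1 (chr6:128362994-128375886, plus strand) encodes a forkhead factor that B-Myb and MuvB bring to late promoters. It was at 62.1, 61.4 and 64.6 CPM in NF-YA cKO and 32.6, 57.7 and 37.4 CPM in NF-YA fl/fl. All NF-YA cKO libraries were above NF-YA fl/fl, although NF-YA fl/fl replicate 2 came close. The log2 fold change was 0.56 (interval 0.07 to 1.05) with FDR = 0.0717, and 0.83 with FDR = 0.00212 without NF-YA fl/fl replicate 2. In TPM, replicate 2 of NF-YA fl/fl (18.76) was above all NF-YA cKO libraries (16.79, 14.12 and 16.89). Whether the log2 fold changes of Mybl2 and Foxm1 differed was not tested. Exons of Gm44596 and Tex52 overlap Foxm1 exons on the same strand, over at most 97 and 144 nt, and no level was given for either.

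The SD of the CPM was larger in NF-YA fl/fl than in NF-YA cKO for each of the 10 genes except Rbl2 (0.513 and 0.649 CPM), and the same libraries stood out for several genes. Among NF-YA fl/fl, replicate 2 was the highest in Rbl1, Lin9, Mybl2 and Foxm1 and the lowest in Rb1, Lin37 and Lin52. Replicate 3 was the highest in Rb1, Lin37, Lin52 and Rbbp4 and the lowest in Rbl1, Rbl2, Lin9 and Lin54. The summed CPM of 30 late cell cycle genes was likewise highest in replicate 2 (1809 CPM, against 1219 in replicate 1 and 1127 in replicate 3) and was 2921 to 3142 CPM in NF-YA cKO.

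The order of the genes by TPM differed between the genotypes. Rbbp4 was by far the highest in both (152.8 ± 6.89 in NF-YA cKO and 146 ± 20.5 in NF-YA fl/fl). In NF-YA fl/fl it was followed by Rb1 (28.1 ± 1.67 TPM), apart from all others, and then by Foxm1, Rbl1, Lin54, Lin37, Rbl2, Mybl2, Lin9 and Lin52 (11.9 to 3.46 TPM), each of which overlapped its neighbour. In NF-YA cKO the next were Foxm1 (15.9 ± 1.57 TPM) and Mybl2 (15.4 ± 0.206 TPM), which overlapped, and Rbl1 (13.5 ± 1.07 TPM). Lin54, Rb1 and Lin9 followed at 9.30, 7.78 and 6.55 TPM, each overlapping its neighbour, then Rbl2 at 5.94 TPM, and Lin52 and Lin37, which overlapped, at 3.77 and 3.39 TPM.

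For Rb1 and Mybl2 the difference lay in the main transcript. Of 38 transcripts of the 10 genes, 19 had a mean of at least 1 CPM. The Rb1 transcript of 4625 nt held 97.1% ± 1.64 of the gene's TPM in NF-YA cKO and 96.0% ± 0.535 in NF-YA fl/fl, and its level was 28.3, 30.1 and 36.4 CPM against 104, 85.3 and 138 CPM. A shorter Rb1 transcript of 2418 nt made up 1.39% ± 0.182 in NF-YA cKO and 3.61% ± 0.443 in NF-YA fl/fl (p = 0.1, two-sided exact permutation test). The Mybl2 transcript of 3702 nt held 94.3% of the gene in NF-YA cKO and 94.1% in NF-YA fl/fl, at levels of 48.4 ± 3.90 and 13.8 ± 4.58 CPM. Rbl1 was split between transcripts of 4884 nt (63.2% ± 8.17 in NF-YA cKO and 73.1% ± 11.02 in NF-YA fl/fl) and 2381 nt (29.3% and 25.4%), whose shares overlapped between genotypes (exact permutation test, p = 0.4 and p = 0.7). For Rbbp4, whose total overlapped between genotypes as that of Lin52 did, the share of the 1857 nt transcript was 76.9%, 75.3% and 75.3% in NF-YA cKO and 71.05%, 71.7% and 67.1% in NF-YA fl/fl. These shares did not overlap (p = 0.1, exact permutation test, the smallest possible), and the remainder was the transcript of 4407 nt. Sync, which was lower in NF-YA cKO, overlaps Rbbp4 exons on the opposite strand, and whether its reads bear on these shares was not tested. Foxm1 had 1 transcript in the tables, of 4365 nt. Such estimates depend on how RSEM splits reads among transcripts of 1 gene, and Rbl2, Lin52, Rbbp4 and Mybl2 also had fractional counts at the gene level.

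Genes whose profile over the 6 libraries was closest to that of a member were found by the root mean square difference of centred log2 CPM over 9456 genes. Mef2a was nearest to Rb1 (0.0410), with means of 512 CPM in NF-YA fl/fl against 145 CPM in NF-YA cKO, and Plekhg5 followed (0.0906). Dlgap5 (0.0224) and Topbp1 (0.0230) were nearest to Rbl1, Hmgb3 (0.0753) and Vav3 (0.0844) to Mybl2. Bmpr1a (0.0195) and Dync2h1 (0.0215) were nearest to Rbl2, and LOC108167344 (0.0616) and Gm42127 (0.0737) to Foxm1. The smaller the number, the more alike the profile, and genes that differ little between libraries reach small numbers more easily.

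The partners that complete DREAM, and relatives of its members, were examined next. Of 8 genes, 5 rose, none fell and 3 did not pass the test (median log2 fold change 0.65), where 19.7% of all genes rose and 18.9% fell. None was called by edgeR in either direction, although 5 were higher and 1 lower at an unadjusted p under 0.05, and DESeq2 called 1 of them, Myb, higher. E2f4 (log2 fold change -0.06, FDR = 0.769) and Tfdp2 (-0.25, FDR = 0.498), an E2F and a DP subunit, overlapped between genotypes. E2f5 rose by 0.71 (FDR = 0.0266), from 7.34 ± 1.66 to 12.05 ± 0.873 CPM, and Tfdp1 by 0.69 (FDR = 0.0108), from 129 ± 24.3 to 209 ± 6.77 CPM. Rbbp7, the close relative of Rbbp4 on chromosome X, rose by 0.61 (FDR = 0.00282), from 229 ± 14.9 to 350 ± 4.42 CPM. For it, as for every gene here, effects of sex and of genotype cannot be told apart. The Myb relatives Mybl1 (0.77, FDR = 0.00342) and Myb (1.58, FDR = 0.0256) rose, Myb from 0.595 to 1.81 CPM. Tesmin (Mtl5 in the tables), a relative of Lin54, was under 1.1 CPM in every library (log2 fold change -1.20, FDR = 0.0516).

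Cyclins and kinases that act on the Rb family and MuvB formed the next group of 12, in which 7 rose, 3 fell and 2 did not pass the test (median 0.93). The D cyclins, which start Rb phosphorylation, split: Ccnd1 rose from 261 ± 80.8 to 573 ± 67.1 CPM (log2 fold change 1.14, FDR = 0.00937), while Ccnd2 fell by 0.61 (FDR = 0.00410) and Ccnd3 fell by 1.56 (FDR = 0.0102). Ccnd3 was at 108, 124 and 127 CPM in NF-YA cKO and 269, 232 and 557 CPM in NF-YA fl/fl. Their partner Cdk4 rose by 0.79 (FDR = 0.00169) and Cdk6 did not pass the test (0.22, FDR = 0.343). The E cyclins Ccne1 (1.06, FDR = 0.00548) and Ccne2 (1.49, FDR = 0.00381), the A cyclin Ccna2 (1.27, FDR = 0.00501), Ccnb1 (1.46, FDR = 0.00185) and the mitotic kinase Cdk1 (1.28, FDR = 0.00281) all rose, and Cdk2 did not pass the test (0.11, FDR = 0.601). Dyrk1a, the kinase of Lin52, fell by 0.56 (FDR = 0.0220), from 157 ± 31.1 to 106.8 ± 1.77 CPM. Of the 12 genes, 6 were called higher and 0 lower by edgeR (7 and 3 at an unadjusted p under 0.05), and DESeq2 called 6 higher and Ccnd3 lower. Over all genes edgeR called 4.65% higher and 7.67% lower, while 19.7% rose and 18.9% fell. Without any 1 NF-YA cKO library, or without NF-YA fl/fl replicate 1, none was called.

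**Figure D3:**
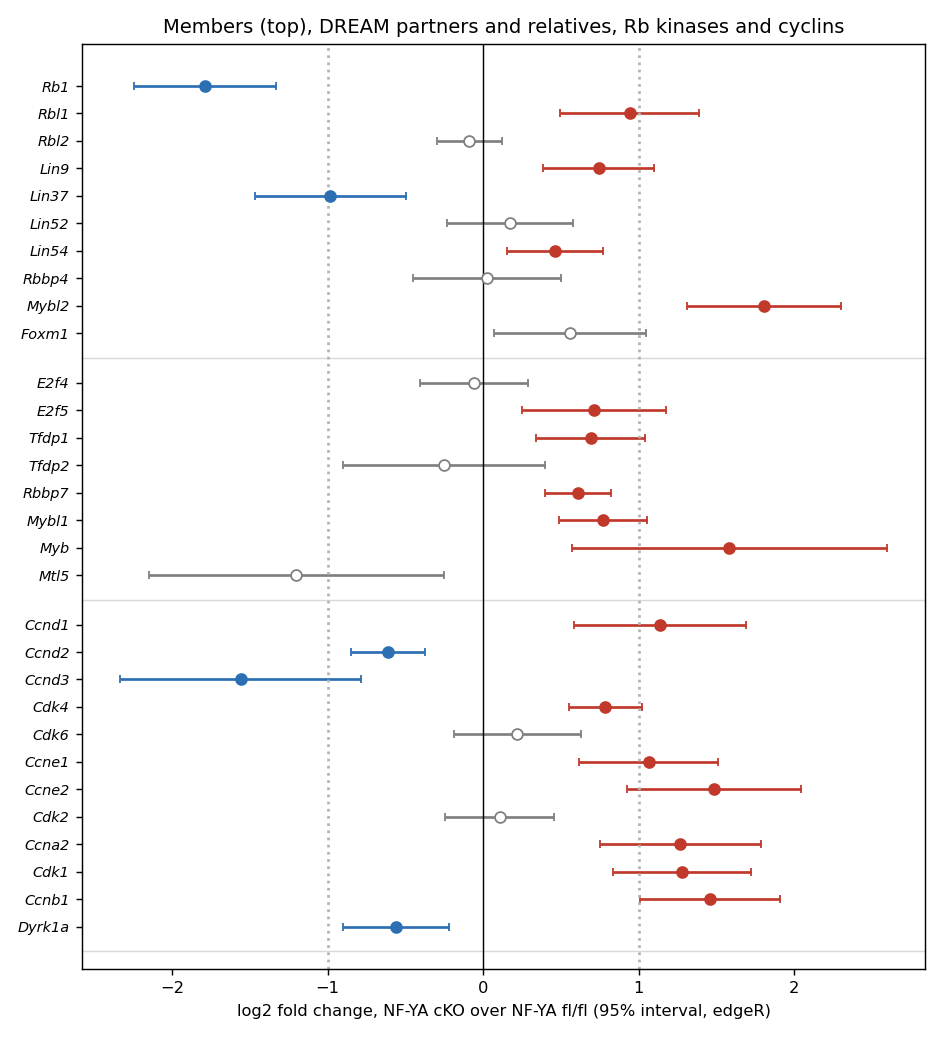
Log2 fold change of NF-YA cKO over NF-YA fl/fl (horizontal axis) with its 95% interval for the 10 genes, 8 DREAM partners and relatives (Mtl5 is Tesmin) and 12 kinases and cyclins. Filled red and blue points passed an FDR under 0.05, open grey points did not, and dotted lines mark 1 and -1. Rb1 and Ccnd3 lay farthest to the left, and Mybl2 farthest to the right.

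Genes that the MuvB complexes and the Rb family are known to control rose together. In the late cell cycle list of 30 genes, known targets of MuvB with B-Myb and FoxM1, 29 rose and 20 were called higher, with log2 fold changes of 0.53 to 1.58 (median 1.17). In the G1/S list of 30 genes, known E2F targets, 27 rose and 22 were called higher (median 1.33), and 3 did not pass. None of either list was called lower by edgeR or by DESeq2, and at an unadjusted p under 0.05 the late list had 0 lower and the G1/S list 1. In the same fit 4.65% of all genes were called higher and 19.7% rose. The lists hold genes known to be cell cycle regulated and earlier results of these data were known when they were drawn up. The number called higher fell to 2 of the late genes and to 6 to 12 of the G1/S genes when any 1 NF-YA cKO library or NF-YA fl/fl replicate 1 was left out.

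Bub1b, a spindle checkpoint kinase, was at 138, 151 and 139 CPM in NF-YA cKO and 38.6, 66.4 and 38.0 CPM in NF-YA fl/fl (log2 fold change 1.58, FDR = 0.0026). Cenpa (1.502), the centromeric histone, Aurka (1.47), a mitotic kinase, and Birc5 (1.44), which encodes survivin, followed with an FDR of at most 0.00282. The smallest differences were those of Cdc25b (0.66, FDR = 0.122), a phosphatase that did not pass, and Cenpf (0.53, FDR = 0.0229). Rrm2, a subunit of ribonucleotide reductase, was at 415, 449 and 458 CPM in NF-YA cKO and 78.6, 170.2 and 155 CPM in NF-YA fl/fl (log2 fold change 1.71, FDR = 0.0039). Cdc6 (1.65), Mcm5 (1.63) and Mcm3 (1.54), which license replication origins, were next once G1/S genes averaging under 10 CPM were set aside. The G1/S genes that did not pass were E2f1 (0.38, FDR = 0.0680), Tyms (0.15, FDR = 0.406) and, named after its value was seen, E2f2 (-0.62, FDR = 0.0763).

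**Figure D4:**
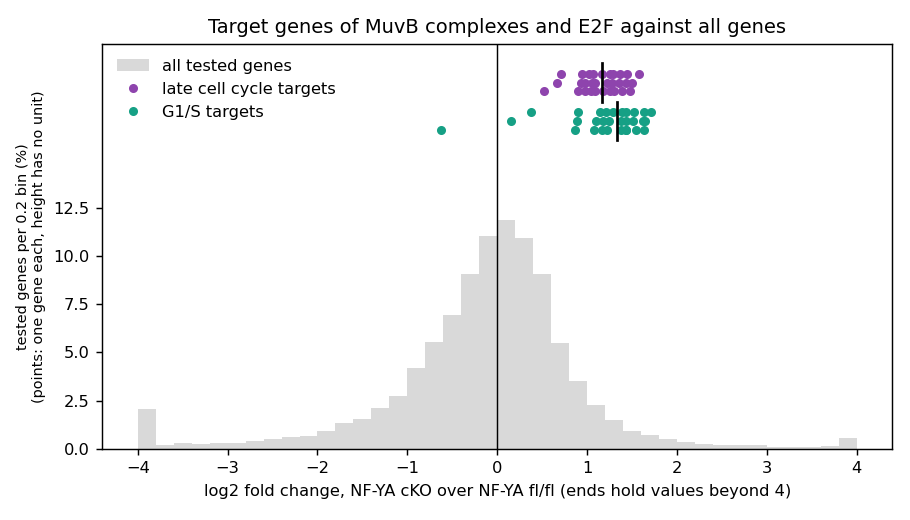
Log2 fold changes of NF-YA cKO over NF-YA fl/fl (horizontal axis) of all tested genes as a histogram (percent of genes per bin, vertical axis) and of the 30 late and 30 G1/S genes as points, whose height has no unit. Black bars mark the list medians of 1.17 and 1.33, right of the bulk of all genes.

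The words were also counted over the promoters of the target lists and over all promoters. Of the 8 windows of the 10 genes, 4 held CCAAT, 4 a CHR and 3 an E2F word, where 37.4%, 19.2% and 9.57% of all 32851 RefSeq promoter windows did. The E2F variant was in 3 of the 8, among them the Mybl2 window that prompted its search, and in 2.74% of all windows, so that nothing is read from its count. Of 27 windows of late genes, 22 held CCAAT (81.5%), 21 a CHR (77.8%) and 3 an E2F word (11.1%). Of 26 windows of G1/S genes, 19 held CCAAT (73.1%), 4 a CHR (15.4%) and 18 an E2F word (69.2%). The late list was drawn up as targets of MuvB complexes or their CHR, and the G1/S list as genes with E2F sites. The shares of CHR in the former and of E2F words in the latter follow in part from that choice, so that nothing is read from them. Of the members that rose, Lin9 had no window. The Mybl2 window, which lies inside the gene, and the Rbl1 window held no CCAAT. Of the windows of the alternative starts of Lin54, 1 held CCAAT (at -229, opposite strand). Whether CCAAT goes with the direction of change was not tested. Rbbp4 and Lin52, which did not pass the test, each held a CCAAT on the opposite strand (at -26 and -249) and E2F words (at -15, overlapping another at -12 on the opposite strand, and at -26). A match is a description of letters in the window, and no factor binding was measured in these libraries.

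Aurka and Mcm5 are shown as a late and a G1/S promoter of genes named above, for comparison with Mybl2 and Rbl1, and were picked with their words in view. Other named targets had few words: the Birc5 window held none of them, and the Cdc6 window held 1 E2F word (at -138, opposite strand) and no CCAAT or CHR. The Aurka window (chr2:172370521-172370820, minus strand) held CCAAT at -51 and -19 and a CHR at 32. The Mcm5 window (chr8:75109259-75109558, plus strand) held CCAAT at -77, -22 and 6 and E2F words at -164, -152 and -149, the last of these overlapping on opposite strands.
Aurka: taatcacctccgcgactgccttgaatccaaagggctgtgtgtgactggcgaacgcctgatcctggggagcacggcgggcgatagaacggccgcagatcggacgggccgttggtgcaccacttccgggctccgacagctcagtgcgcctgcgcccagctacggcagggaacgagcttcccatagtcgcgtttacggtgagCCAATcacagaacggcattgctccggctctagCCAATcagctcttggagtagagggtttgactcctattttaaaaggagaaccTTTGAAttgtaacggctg
Mcm5: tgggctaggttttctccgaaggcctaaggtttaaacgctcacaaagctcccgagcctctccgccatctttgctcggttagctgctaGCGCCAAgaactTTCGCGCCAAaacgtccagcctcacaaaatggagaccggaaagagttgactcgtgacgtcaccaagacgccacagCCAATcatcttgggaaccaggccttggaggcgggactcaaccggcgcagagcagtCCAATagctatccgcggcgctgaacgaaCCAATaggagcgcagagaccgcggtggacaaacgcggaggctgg

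**Figure D5:**
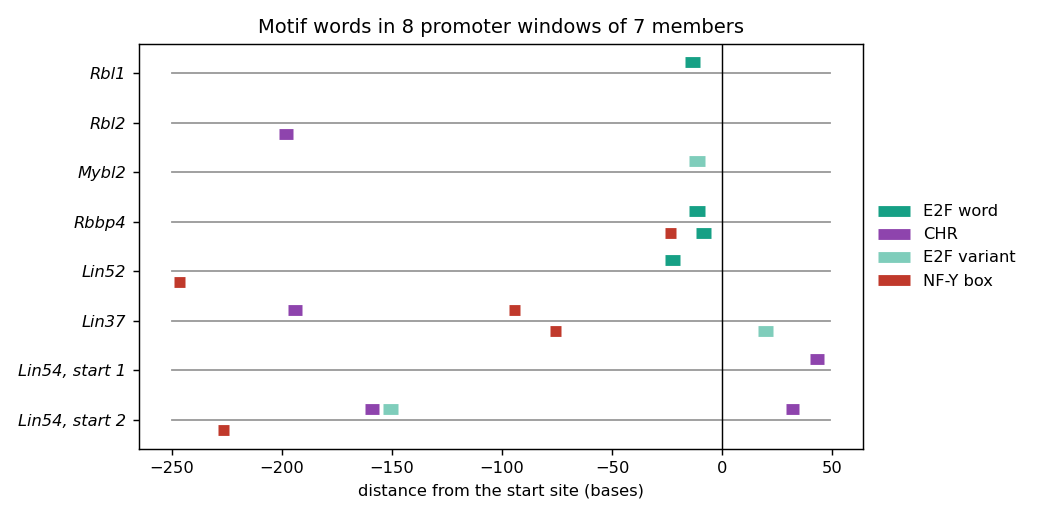
Words (NF-Y box, CCAAT) found in the 8 promoter windows of 7 of the 10 genes, by distance from the start site in bases (horizontal axis). Marks above a line lie on the strand of the gene and marks below on the opposite strand. The E2F word of Rbl1 and the E2F variant of Mybl2 lie just before the start site used for the window. Lin37 has CCAAT boxes at -97 and -78. For Mybl2 and Lin37 the start site used is not the outer end of the gene.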

How the data were processed

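RNA-seq libraries (3 of each genotype) were grouped by the genotype in the labels. The authors used Bowtie2 against mm10 transcripts and RSEM, which gave the deposited expected counts, raw values that were rounded here. The deposited TPM are scaled by the authors' software to transcript length, and the deposited percent of a gene's TPM is given for each transcript. The members and all lists were chosen with earlier results of these data known, and some lists were adapted from an earlier analysis of the same files. The 17348 of 35976 genes that exceeded 10 counts in 2 or more libraries were tested with edgeR 4.0.16 in R 4.3.3 (TMM, quasi-likelihood, genotype only, Benjamini-Hochberg adjustment), with thresholds and filter of the study's methods. The study itself used DESeq2. Run here as an alternative, DESeq2 called 986 genes higher and 1804 lower, Lin37 among the latter. A standard error is the log2 fold change divided by the square root of F. Ratios and transcripts were compared with exact permutation tests. The genes printed by name are the 10 members, all partners, kinases and cyclins, in each target list the 4 largest and the 2 smallest changes with a mean of at least 10 CPM, Nfya, and the 2 genes nearest in profile to Rb1, Rbl1, Rbl2, Mybl2 and Foxm1. E2f2, the markers Pax7, Des, Ptprc and C1qb, and Xist and Ddx3y are not named by it and were picked with their values in view. Gene positions are from RefSeq, and strands and exon overlaps from GENCODE (GRCm38). Alternatives were DESeq2 1.42.0, its size factors, no filter, filterByExpr, limma 3.58.1 on log2(TPM + 1) and log2(TPM + 0.1), no rounding, a replicate block, TPM in place of CPM for transcripts, and leaving out each library. Depth gives 3 counts a level of 0.0705 to 0.115 CPM. Taken over all genes, the spread between libraries was larger than counting alone gives. For genes with few counts, such as Lin37, counting limits the comparison as well.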

Additional observations from a re-analysis of the deposited data

How the results depend on the processing

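In 14 alternative analyses (8 settings and leaving out each of the 6 libraries), Rb1 was called lower in 14 and Mybl2 higher in 13, and Lin37 passed an FDR under 0.05 in 14, with an FDR of at most 0.00852, 0.0107 and 0.0458. DESeq2, its size factors, filterByExpr, limma on log2(TPM + 0.1) and counts without rounding called 2 members lower, adding Lin37 to Rb1. Both limma fits on TPM left 1 member, Mybl2, higher at an FDR under 0.05, with FDR of 0.0762 and 0.0709 for Rbl1, 0.113 and 0.106 for Lin9, and 0.286 and 0.274 for Lin54 at a pseudocount of 1 and 0.1, and the cause was not tested. The same fits called 231 and 361 genes of all genes higher and, with a pseudocount of 1, 704 lower, 1 and 2 late cell cycle genes, 6 and 8 G1/S genes, and 0 kinases and cyclins higher. Among the partners DESeq2 called 1 higher, and among kinases and cyclins 1 lower (Ccnd3) was called by DESeq2, its size factors, no filter, filterByExpr, limma at either pseudocount and counts without rounding.

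Leaving out 1 library gave 177 to 890 genes called higher and 523 to 1684 lower, 0 to 2 members higher, 2 to 5 members higher at an FDR under 0.05, 2 to 27 late genes, 6 to 24 G1/S genes, 0 to 1 partners, and 0 to 6 kinases and cyclins higher with 0 to 1 lower. The fewest calls came without NF-YA cKO replicate 2 (177 and 523). Rbbp4 changed sign, to -0.0080 with filterByExpr and -0.00215 without rounding, and lay between -0.11 and 0.29 with a library left out. The log2 ratios of Rbl1 to Rbl2 and Mybl2 to Rbl2 stayed between 0.96 and 1.35 and between 1.79 and 2.17, and their permutation p, which cannot go below 0.1, says nothing about stability.

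With the replicate number as a block, 625 genes were called higher and 947 lower, and the calls among the 10 members were the same genes (Mybl2 and Rb1). Deviations of libraries with the same number correlated with r = 0.165, -0.069 and 0.053, and only 2 NF-YA cKO libraries and 1 NF-YA fl/fl library correlated best with their own number, so that the numbers were not taken as pairs. The median log2 fold change of all tested genes was -0.09 to 0.01 over the settings.

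Limits are the 3 libraries per genotype, of which the NF-YA fl/fl libraries vary most, and the low count of Lin37. Exons are shared with genes on the opposite strand and, for Foxm1, on the same strand. The activity of these complexes turns on protein and phosphorylation, which mRNA does not show. Further limits are that sex went with genotype and that markers of muscle and macrophages differed strongly between the genotypes.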
